A study of Rattus norvegicus with 12 samples.

Results

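The genes described here encode the proteasome and the enzymes that attach ubiquitin to proteins or remove it. They were taken by symbol: proteasome subunits and their assembly factors (Psma to Psmg), activating enzymes (Uba), conjugating enzymes and ligases (Ube2, Ube3), ubiquitin-specific proteases (Usp) and C-terminal hydrolases (Uchl). Of the 18144 array features, 138 carried such a symbol alone, from 69 clones of 58 genes, and each clone was printed as 2 spots. A further 42 features that list such a symbol among several were left out. Tissue labelled NTS, an abbreviation the labels do not spell out, was punched from rat slices of 250 µm and pooled within an animal. There were 6 animals labelled alcoholic and 6 controls, joined by the labels into 6 animal pairs, with 1 array each. Strain, sex, age, and the dose and length of ethanol exposure are not given in the sources used here. All arrays shared the same reference RNA in Cy3, with the animal's amplified RNA in Cy5.

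Ubiquitin is a small protein that cells attach to other proteins through a relay of an activating enzyme, a conjugating enzyme and a ligase. Chains of it mark a protein for the proteasome, a barrel of alpha and beta subunits capped by a regulatory particle that recognizes, unfolds and feeds in the substrate. Ubiquitin-specific proteases and C-terminal hydrolases take ubiquitin off again, and in neurons this system takes part in clearing damaged proteins and in remodelling synapses.

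The values are log2 ratios, read as animal over reference with each array centred on its own median, so 0 is the array's median feature. The dyes make that direction likely, but no source used here states it; were it the reverse, all signs given here would change. A ratio to a reference of unknown make-up gives no level, so the NTS label could not be checked by how strongly marker genes were expressed. Of its markers, Slc6a2 and Slc18a2, the noradrenaline and vesicular monoamine transporters, had mean ratios of 1.87 and 0.91, and Phox2a, a transcription factor of such neurons, of -0.01. The neuropeptide genes Npy and Gal, also on that list, stood at -1.07 and -0.01, and the median of the 5 clones was -0.01. Array medians before centring lay between 0.35 and 1.85. Exact zeros, 484 to 726 per array, were taken as missing. Precision is limited by the number of arrays.

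For most clones the 2 spots gave similar ratios. The median gap between them was 0.19 over the 69 member clones and 0.19 over all 5577 clones of 2 spots. It was widest in Psmd13, Usp2 clone 2 and Usp25, at 2.24, 1.04 and 0.85, and the spots' profiles over the arrays correlated above 0.5 in 44 of 66 member clones. Different clones of 1 gene lay further apart. Over the 13 pairs of clones under the same member symbol, the median gap in mean ratio was 1.24, with a range from 0.02 to 5.37. The clones of Psmd11, a subunit of the regulatory particle, stood at -1.49 and -1.50, while those of Usp2 stood at -1.17 and 2.64. Symbols come from an older platform annotation and were not checked, so each clone is described on its own.

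Before the comparison of the groups, the arrays themselves showed a split. Of 66 member clones measured on all arrays, the arrays of pairs 1 and 2 held the 4 highest of the 12 values in 3, against 4.13% of all 11017 such clones, and the 4 lowest in 6, against 5.9%. The split ran through the whole array and is no result about the members. It was noticed in the values and was not tested. The first principal component of the 11017 complete clones held 26.3% of the variance, and whether it follows this split was not examined. The labels name no batch, and what separates these animals or arrays was not tested.

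Uchl1, a hydrolase abundant in neurons, showed it most plainly: the 4 arrays of pairs 1 and 2 lay between -0.38 and 0.06, and the 8 others between -1.77 and -1.18. The second clone of Psma7, an alpha subunit of the core, was at 0.15 to 0.43 in pairs 1 and 2 and at -0.87 to 0.00 elsewhere. In Psmc5, an ATPase of the regulatory particle, the order was the other way, with 0.09 to 0.51 in pairs 1 and 2 and 0.76 to 2.02 in the rest. Ube2e2, a conjugating enzyme, was at -1.01 to -0.51 and at -0.20 to 0.95. The gap lay between pairs, and each pair held both groups. An offset shared by both animals of a pair therefore drops out of the differences within pairs. The differences themselves can still vary between pairs 1 and 2 and the rest. With pairs 3 to 6 alone, 12 of 39 clones given in detail below had another sign than over all pairs. With pairs 1 and 2 alone, 11 of 37 did. Some of these clones differed by close to 0 over all pairs, such as the first Psma7 clone at -0.01, where a small change turns the sign. The share over all clones is not given here, so the counts are no result about the split, whose part was not tested.

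**Figure D1:**
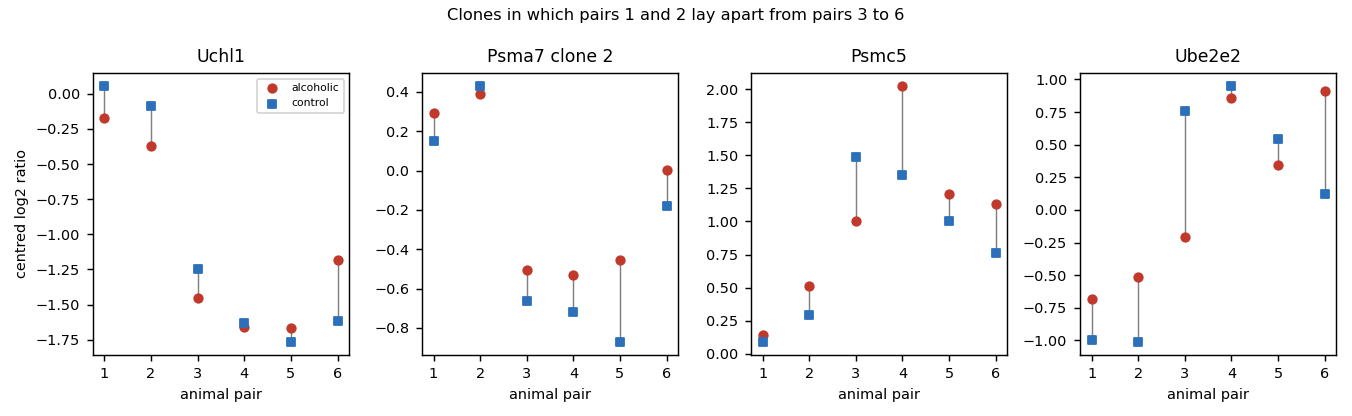
Centred log2 ratio (vertical axis) of Uchl1, the second Psma7 clone, Psmc5 and Ube2e2 in each animal pair (horizontal axis), with circles for alcoholic and squares for control animals and a line joining a pair. Pairs 1 and 2 lie above the others in the first 2 panels and below them in the last 2. Except in Uchl1, some animals of a pair lie further apart than the gap between pairs 1 and 2 and the rest.

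The comparison within pairs asks which genes set alcoholic animals apart from their paired controls. None of the proteasome and ubiquitin genes was called as higher or lower. Of 68 member clones with both values in at least 4 pairs, 0 had an adjusted p under 0.05 by limma, fitted with the pair as a block, beside 0.0% of all 11852 clones tested. The smallest adjusted p was 0.999. At an unadjusted p under 0.05 there was 1 member clone, Usp1, against 2.37% of all clones. It was lower in alcoholic animals, as were 1.07% of all clones at that p, and 0 members were higher, against 1.3%. Differences of members lay 34 above 0 and 34 below, with a median of -0.00 beside 0.01 over all clones tested. The clone not tested was the second of Usp6nl, missing on 3 arrays.

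The intervals show what sizes these arrays allow. The median standard error of a member's log2 difference was 0.16. For 62 of the 68, or 91.2%, the 95% interval held no change beyond 2-fold, and for 51 none beyond 1.5-fold; over all clones tested the shares were 86.3% and 65.9%. Wider intervals belonged to Ube2k, Usp25, Usp2 clone 2, Usp3, Psmb2 and Psmd13, whose values scattered most. For the proteasome subunits and assembly factors alone, 25 of 27 intervals lay within 2-fold and 23 within 1.5-fold.

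**Figure D2:**
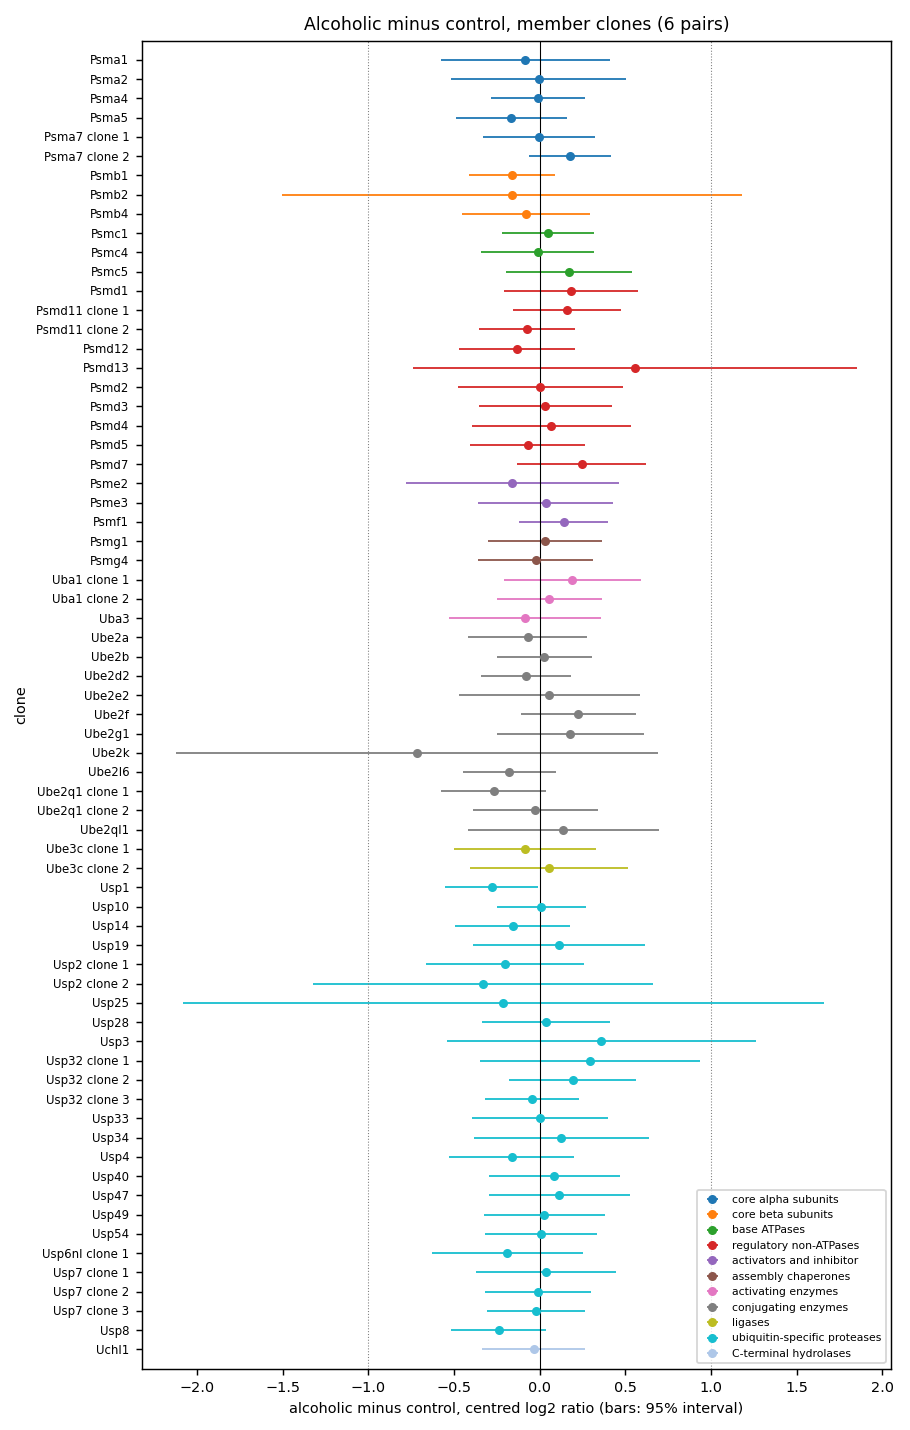
Difference alcoholic minus control in centred log2 ratio (horizontal axis) for each of the 68 member clones tested (vertical axis, coloured by role), with points for the fitted difference over 4 to 6 pairs, bars for its 95% interval and dotted lines at a 2-fold change. Only the interval of Usp1 leaves out 0, and 6 intervals reach past a dotted line.

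Pair by pair, the members' median difference was 0.15 in pair 1, 0.04 in pair 2, -0.30 in pair 3, -0.05 in pair 4, -0.01 in pair 5 and 0.01 in pair 6. All clones had medians from -0.06 in pair 6 to 0.07 in pair 1. Pair 3 therefore stood lowest, in 9 of the 11 roles below 0. Its assembly chaperones and base ATPases had medians of 0.40 and 0.06. Without pair 3 the median over members was 0.04, and no clone was called.

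Core alpha subunits form the outer rings of the barrel and gate its entry. Their 6 clones had a median difference of -0.01, with 1 above 0 and 5 below. In alcoholic animals Psma5 ranged from -0.20 to 0.05 with a median of -0.06, and in controls from -0.21 to 0.46 with a median of 0.04. The groups overlapped, and the difference was -0.17 (95% interval -0.49 to 0.16). The first Psma7 clone ranged from -0.73 to 0.50 (median 0.00) against -0.36 to 0.40 (median -0.14) in controls, a difference of -0.01. The second ranged from -0.53 to 0.39 (median -0.22) against -0.87 to 0.43 (median -0.42), a difference of 0.18 (interval -0.07 to 0.42). It was higher in 5 of 6 pairs. Some members without that remark below, such as Psmc1 and Psme3, had such a count too. The share of all clones with 5 of 6 pairs on the same side is not given here, so these counts only describe single clones. Psma1, Psma2 and Psma4 differed by -0.08, -0.01 and -0.01.

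Core beta subunits make the inner rings, which hold the cutting sites in other members than those measured here. All 3 clones lay below 0. Psmb1 was at 0.44 to 0.71 (median 0.51) in alcoholic and at 0.53 to 0.96 (median 0.64) in control animals. Its difference was -0.16 (interval -0.41 to 0.09), lower in 5 of 6 pairs. Psmb4 was at 0.22 to 0.79 (median 0.34) against 0.02 to 1.05 (median 0.47), a difference of -0.08 that came to 0.07 without pair 3. Psmb2 differed by -0.16 with an interval from -1.50 to 1.18: 1 alcoholic animal stood at 3.46 and 1 control at 4.33, and the other 10 arrays at 1.06 to 1.77. The 2 spots of Psmb2 shared this pattern, with r = 0.90 over the arrays.

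The base of the regulatory particle is a ring of ATPases that unfolds substrates. Psmc5 ranged from 0.14 to 2.02 (median 1.07) in alcoholic and from 0.09 to 1.49 (median 0.88) in control animals. It was higher in 5 of 6 pairs, by 0.17 (interval -0.20 to 0.54), or by 0.07 without pair 4 and 0.30 without pair 3. Psmc1 ranged from -0.29 to 0.12 (median -0.10) against -0.36 to 0.07 (median -0.14), and differed by 0.05. Psmc4 differed by -0.01 (interval -0.34 to 0.32).

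Non-ATPase subunits bind ubiquitin chains and hold the particle together. This role was taken from the symbol Psmd alone, so it also counts Psmd5, an assembly factor of the particle. Of its 10 clones 7 lay above 0, with a median of 0.05. Psmd7, the partner of the particle's own deubiquitinase, was at -2.56 to -2.0 (median -2.31) in alcoholic and at -2.90 to -1.99 (median -2.59) in control animals. Its difference was 0.24 (interval -0.13 to 0.62), or 0.11 without pair 2. The 2 spots of Psmd7 lay a median of 0.54 apart and correlated at only r = -0.01 over 12 arrays. Their mean differences were 0.20 and 0.29. The first Psmd11 clone ranged from -1.90 to -0.96 (median -1.37) against -2.25 to -0.97 (median -1.56), and the second from -2.16 to -1.25 (median -1.45) against -1.89 to -1.01 (median -1.52). Their differences had opposite signs, 0.16 and -0.07, with intervals of -0.16 to 0.47 and -0.36 to 0.21.

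Psmd13 had the widest positive difference of the members, 0.56 (interval -0.74 to 1.85). It ranged from 1.31 to 5.35 (median 3.88) in alcoholic animals and from 1.21 to 5.12 (median 2.88) in controls. Its 2 spots lay a median of 2.24 apart on the 6 arrays where both were measured. The mean difference was 0.69 on one and -0.87 on the other, each over its own measured pairs, which can differ. In 5 of 6 pairs Psmd1, a scaffold subunit, was higher, by 0.18 over all pairs. Psmd4, a receptor for ubiquitin chains, differed by 0.07, Psmd12 by -0.13, Psmd5 by -0.07, Psmd3 by 0.03 and Psmd2 by 0.00.

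Other proteins control access to the core or build it. Psme2, an interferon-inducible activator, ranged from -2.25 to -1.01 (median -1.35) against -1.89 to -0.75 (median -1.17) in controls. The difference was -0.16 (interval -0.78 to 0.46), or 0.09 without pair 6. Psmf1, a proteasome inhibitor, ranged from -1.30 to -0.20 (median -0.78) against -1.38 to -0.38 (median -0.95). It was higher in 5 of 6 pairs, by 0.14 (interval -0.12 to 0.40). Psme3, a nuclear activator, differed by 0.04. The assembly chaperones Psmg1 and Psmg4 were at 0.73 to 1.51 (median 1.38) and 1.09 to 1.95 (median 1.42) in alcoholic animals. Control values were 0.75 to 1.62 (median 1.28) and 0.91 to 1.89 (median 1.49), with differences of 0.03 and -0.02.

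Activating enzymes start the relay. Uba1 is the main one for ubiquitin, and Uba3 serves the related modifier NEDD8. The first Uba1 clone ranged from 1.07 to 1.98 (median 1.76) in alcoholic and from 0.82 to 2.09 (median 1.55) in control animals, a difference of 0.19 (interval -0.21 to 0.59; 0.04 without pair 3). The second ranged from 0.07 to 0.52 (median 0.46) against 0.14 to 0.42 (median 0.31), a difference of 0.06. Uba3 ranged from 0.15 to 1.03 (median 0.61) against 0.01 to 1.35 (median 0.75), a difference of -0.09 (interval -0.53 to 0.36).

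Among 11 clones of conjugating enzymes 5 lay above 0 and 6 below, with a median of -0.03. The first clone of Ube2q1 ranged from -1.06 to -0.60 (median -0.90) in alcoholic and from -1.04 to -0.28 (median -0.47) in control animals. Alcoholic animals lay lower in 5 of 6 pairs, and the difference was -0.27 (interval -0.57 to 0.04; unadjusted p by limma 0.075). In the 4 pairs 3 to 6 it was -0.41 and in pairs 1 and 2 it was 0.02. The second clone, at 0.96 to 1.40 (median 1.18) against 0.52 to 1.74 (median 1.18), differed by -0.03 (interval -0.39 to 0.34). The intervals of the 2 clones overlap, and the gap between them was not tested.

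Ube2f, which conjugates NEDD8, ranged from -1.08 to -0.08 (median -0.46) against -1.23 to -0.06 (median -0.76) in controls, a difference of 0.23 (interval -0.11 to 0.56; 0.12 without pair 2). Ube2k, which builds chains that target proteins to the proteasome, had the widest negative difference of the members, -0.72 (interval -2.12 to 0.69). It ranged from -1.86 to -0.62 (median -1.47) in alcoholic animals and from -1.96 to 1.91 (median -0.96) in controls. The control of pair 1 was the array at 1.91, and without that pair the difference was -0.11. The 2 spots of Ube2k correlated at only r = 0.13 over the 10 arrays where both were measured. Their mean differences, each over its own measured pairs, were -0.75 and -0.16. Ube2l6, the interferon-inducible enzyme for the modifier ISG15, differed by -0.18 and was lower in 5 of 6 pairs. Ube2g1 and Ube2ql1 differed by 0.18 and 0.14.

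Closely related conjugating enzymes can be set side by side. Ube2a and Ube2b, near-identical enzymes of DNA damage tolerance, differed by -0.07 (interval -0.42 to 0.28) and 0.03 (interval -0.25 to 0.30). Ube2d2 and Ube2e2 differed by -0.08 and 0.06. Their ligase partners are many, and only Ube3c, a ligase that works at the proteasome, was measured among the Ube3 genes. Its first clone ranged from -2.36 to -1.17 (median -1.62) in alcoholic and from -1.89 to -1.18 (median -1.54) in control animals. The second ranged from -0.77 to 0.06 (median -0.22) against -1.01 to 0.35 (median -0.33). The differences were -0.08 and 0.05; they turned to 0.10 without pair 3 and to -0.13 without pair 1.

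Ubiquitin-specific proteases were the largest role, with 23 clones tested, 13 above 0 and 10 below, and a median of 0.01. Usp6nl, which shares only the name, is left out of these counts. Usp1, which removes ubiquitin from DNA repair factors, had the smallest unadjusted p of all members. It was at -1.48 to -0.96 (median -1.22) in alcoholic and at -1.08 to -0.74 (median -0.89) in control animals. The groups overlapped, but each alcoholic animal lay below its own control. The differences in pairs 1 to 6 were -0.21, -0.60, -0.50, -0.17, -0.09 and -0.12, and the fitted difference was -0.28 (SE 0.12, interval -0.55 to -0.01). By limma the unadjusted p was 0.043 and the adjusted p 0.999. The difference was -0.22 without pair 2 and -0.32 without pair 5, and its spots differed by -0.31 and -0.26. Leaving out 1 pair gave unadjusted p of 0.131 by limma without pair 2 and 0.048 without pair 5, and the value passed 0.05 only without pair 5; without centring it was 0.348.

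Usp8, which acts on receptors sorted at endosomes, also lay lower in 6 of 6 pairs. It ranged from -0.08 to 0.56 (median 0.16) against 0.19 to 0.68 (median 0.42), and differed by -0.24 (SE 0.12, interval -0.52 to 0.04). The unadjusted p by limma was 0.082 and the adjusted p 0.999. In pairs 3 to 6 the difference was -0.31, and in pairs 1 and 2 it was -0.10. These were the only 2 of 66 complete member clones lower in all pairs, against 0.817% of all complete clones, and 0 were higher in all pairs, against 0.817%.

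**Figure D3:**
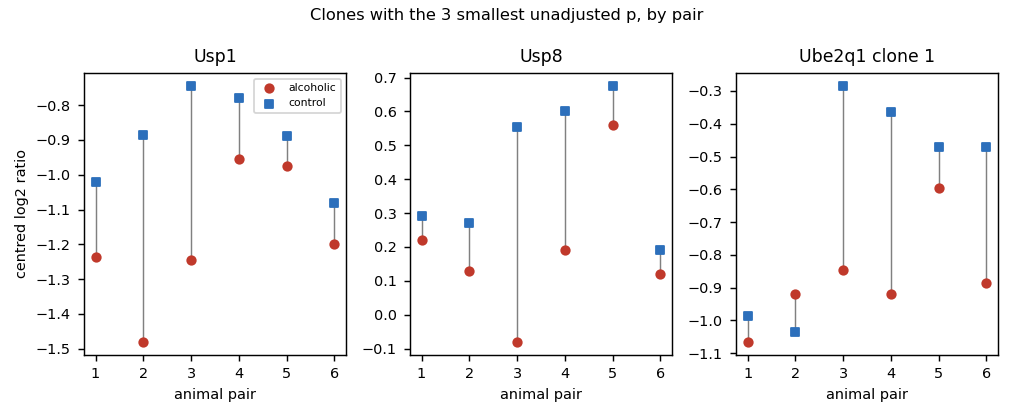
Centred log2 ratio (vertical axis) of Usp1, Usp8 and the first Ube2q1 clone, the members with the 3 smallest unadjusted p, in each of the 6 animal pairs (horizontal axis), with circles for alcoholic and squares for control animals. In Usp1 and Usp8 the circle lies below the square in all 6 pairs, and in Ube2q1 in 5 of 6.

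Usp14, which trims ubiquitin chains at the proteasome itself, was lower in 5 of 6 pairs, by -0.16 (interval -0.49 to 0.18). Usp3, a histone deubiquitinase, had the widest positive difference of the proteases, 0.36 (interval -0.54 to 1.26). It ranged from 0.12 to 3.00 (median 0.50) against -0.06 to 1.02 (median 0.54). The alcoholic animal of pair 2 was the array at 3.00, and without that pair the difference was -0.06. Usp25 ranged from 1.31 to 4.08 (median 2.73) against 1.34 to 4.16 (median 3.50), with a difference of -0.21 over 5 pairs (interval -2.08 to 1.66). Leaving out 1 pair moved it between -0.95 and 0.28. Usp19, a protease of the endoplasmic reticulum, ranged from -3.01 to -1.63 (median -2.62) against -3.51 to -1.60 (median -2.67), a difference of 0.11.

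Several proteases were read from more than 1 clone. For Usp7, which acts on the p53 pathway, 3 clones differed by 0.04, -0.01 and -0.02, with all intervals between -0.37 and 0.44. In alcoholic animals they ranged from -2.65 to -1.78, from -1.71 to -0.72 and from -2.67 to -1.98, with medians of -2.23, -1.31 and -2.04. In controls they ranged from -2.80 to -1.56, from -2.17 to -0.72 and from -2.30 to -1.84, with medians of -2.38, -1.23 and -2.25. No clone of Usp7 separated the groups.

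The 3 clones of Usp32 differed by 0.29, 0.19 and -0.05. In alcoholic animals they ranged from -1.77 to -0.66, from 0.92 to 1.46 and from -1.36 to -0.73, with medians of -1.19, 1.16 and -1.07. In controls they ranged from -2.37 to -0.60, from 0.54 to 1.56 and from -1.23 to -0.83, with medians of -1.63, 0.93 and -0.95. The first clone differed by 0.69 within pairs 1 and 2 and by 0.10 within pairs 3 to 6; without pair 6 it differed by 0.08. All 3 overlapped between the groups.

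The first clone of Usp2, a protease under circadian control, ranged from -1.67 to -0.76 (median -1.25) against -1.64 to -0.12 (median -1.21), a difference of -0.20, or -0.02 without pair 1. The second ranged from 1.36 to 3.72 (median 2.37) against 1.40 to 3.74 (median 3.08). It differed by -0.33 over 4 pairs, with mean differences of -1.76 and 1.04 on its spots, each over its own measured pairs. Usp6nl shares the name but is a GTPase-activating protein for Rab proteins, not a protease. Its first clone ranged from -3.32 to -2.07 (median -2.36) against -2.68 to -2.07 (median -2.27), a difference of -0.19 that came to -0.05 without pair 2. The second ranged from 1.46 to 3.90 on 4 alcoholic arrays and from 3.06 to 3.50 on 5 control arrays.

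Of the remaining proteases, Usp4 differed by -0.16, Usp34 by 0.12, Usp47 by 0.12, Usp40 by 0.08, Usp28 by 0.04, Usp49 by 0.03, Usp10 and Usp54 by 0.01 each and Usp33 by 0.00. Uchl1 ranged from -1.67 to -0.18 (median -1.32) in alcoholic and from -1.77 to 0.06 (median -1.43) in control animals. Its difference within pairs was -0.04 (interval -0.34 to 0.26), although the arrays spanned 1.82. Neuron markers, 6 clones in all, had differences from -0.07 to 0.36 with a median of 0.01, and 0 had an adjusted p under 0.05 by limma, or an unadjusted one. All 4 astrocyte markers lay above 0 (median 0.27) and all 5 endothelial markers below it (median -0.09), and 0 of either list passed at an adjusted or unadjusted p of 0.05 by limma. On the list of 5 NTS marker clones, 4 lay above 0 and 1 below (median 0.01). Npy on that list was higher by 0.32, with an unadjusted p of 0.021 and an adjusted p of 0.999 by limma. The part of these markers in the members' differences was not tested.

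Repeat spots of a clone did not settle the sign of such small differences. Each spot's mean difference was taken over the pairs in which that spot was measured. Its sign was the same on both spots in 42 of 69 member clones (60.9%) and in 61.0% of 5552 clones over the array. The median gap between the spots' differences was 0.12 for members. In Usp2 clone 2, Usp25 and Psmd13 the spots disagreed by more than 1 on the log2 scale; all 3 had mean ratios above 2 and few arrays with both spots measured, 4 to 6.

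**Figure D4:**
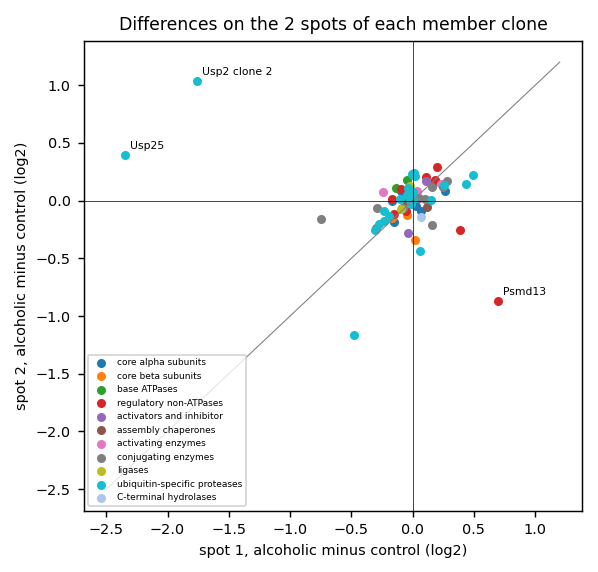
Mean difference alcoholic minus control (log2) on spot 2 (vertical axis) against spot 1 (horizontal axis) for each of the 69 member clones, coloured by role (Usp6nl with the proteases, by name), with the line of equality. Most clones lie close to 0 on both axes, and Usp25, Usp2 clone 2 and Psmd13 lie far from the line. Each mean is over the pairs in which that spot was measured.

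Other genes of the pathway, from a list of ubiquitin and its relatives, ligases, other deubiquitinases and shuttle factors, were measured for 65 of 178 symbols by 78 clones. Of these, 37 clones lay above 0 and 41 below, with a median of -0.00, and by limma 0 had an adjusted p under 0.05 while 4 of 78 had an unadjusted p under 0.05, against 2.37% of all clones. Fbxo16, a substrate receptor of a ligase, differed by -0.93 (SE 0.14, lower in 4 of 4 measured pairs). Ubr2, a ligase that reads the first residue of proteins, was higher in 6 of 6 pairs, with a difference of 0.39 (SE 0.13). Arih1, a ligase partner of cullins, differed by -0.37 (SE 0.16, lower in 5 of 6 pairs). For the ligase Nedd4, 1 clone differed by 1.68 (SE 0.53), with an SD of 3.73 in alcoholic and 3.53 in control animals, while the other 2 differed by 0.03 and -0.00. Adjusted p was 0.999 for each of them by limma.

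Against the reference, the members' mean centred ratio over the arrays had a median of -0.22 and ran from -2.55 to 3.21. For all clones the median was 0.10 and the range -5.08 to 8.28. On all 12 arrays 21 of 66 complete member clones lay above the array median, against 31.3% of all complete clones and 32.6% of those with a single symbol. Another 26 lay below it, against 36.6% and 37.5%, and 19 crossed it. By role, all 3 core beta clones, both assembly chaperones and all 3 activating enzyme clones lay above on every array. Non-ATPase subunits had 2 of 10 above and 5 of 10 below, and ubiquitin-specific proteases without Usp6nl 5 of 21 above and 11 of 21 below. These counts describe clones against one reference, and no test was made.

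Highest was Psmd13 at 3.21 ± 1.39 (SD, n = 12), followed by Usp25 at 2.98 ± 1.08 (SD, n = 11) and the second Usp6nl clone at 2.96 ± 0.79 (SD, n = 9). Here n counts arrays with at least 1 spot of the clone measured. All 6 missing values of members fell on Usp25, the second Usp6nl clone and the second Usp2 clone, at 2.64 ± 0.85 (SD, n = 10). Lowest were Usp19 at -2.55 ± 0.53, Psmd7 at -2.41 ± 0.30 and the first Usp6nl clone at -2.40 ± 0.35 (SD, n = 12 each). Within the same complex the ratios spread widely: Psmc4 stood at 1.95 ± 0.26 and Psmc1 at -0.13 ± 0.17, and Psmd12 at 1.92 ± 0.26 beside Psmd4 at -1.74 ± 0.43 (SD, n = 12 each). Clones of the same member symbol already lay a median of 1.24 and up to 5.37 apart, so these gaps are no measure of the subunits' relative amounts.

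**Figure D5:**
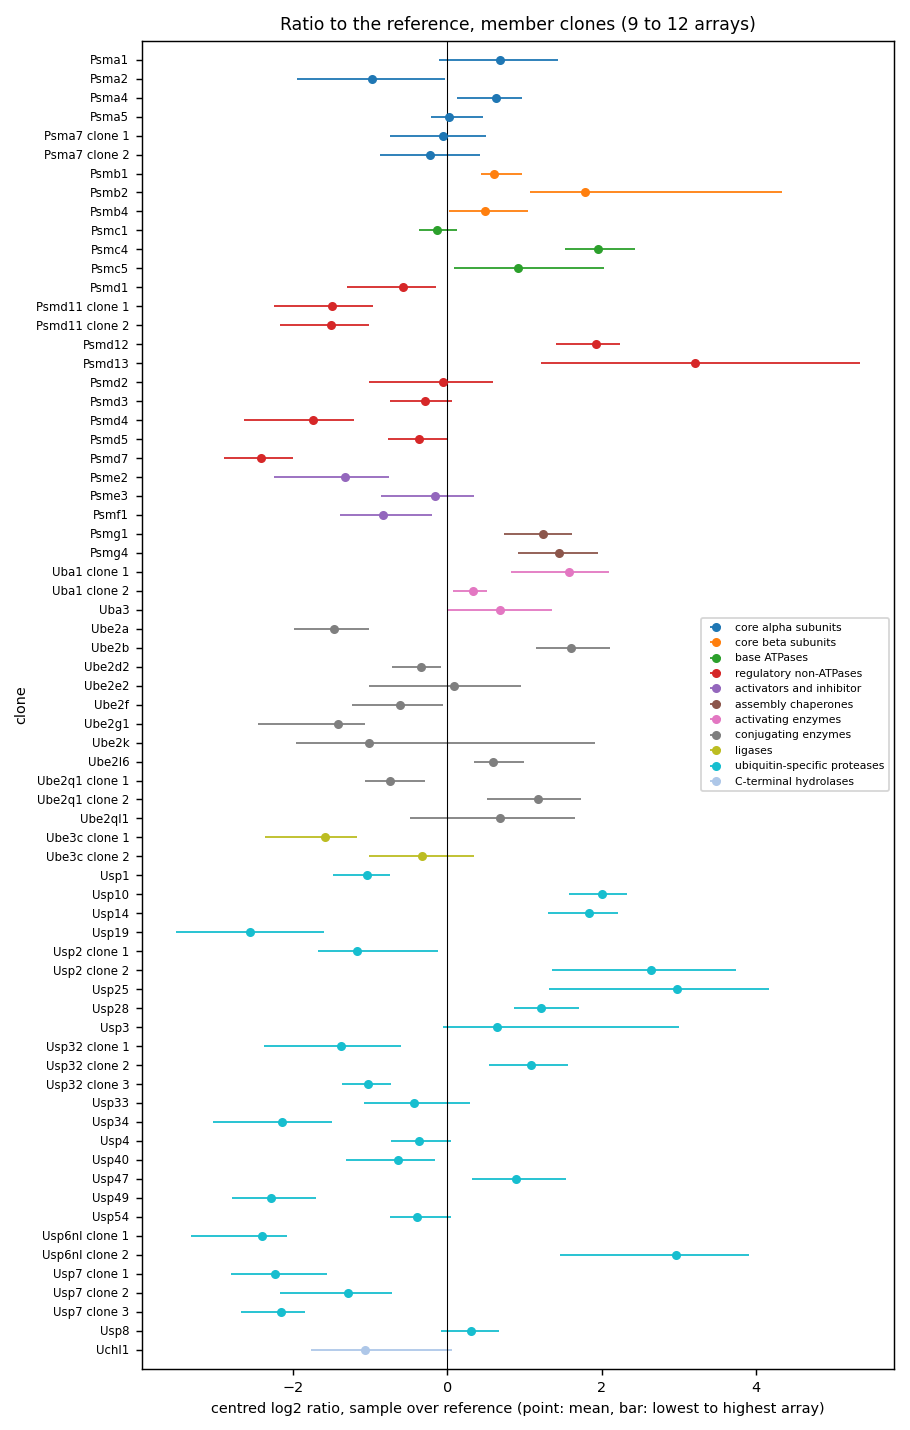
Mean centred log2 ratio of sample over reference (horizontal axis, points) for each of the 69 member clones (vertical axis, coloured by role), with bars from the lowest to the highest of its 9 to 12 arrays. Core beta subunits, assembly chaperones and activating enzymes lie to the right of 0, and most non-ATPase subunits and ubiquitin-specific proteases to the left.

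Members also differed in how steady they were. The second Uba1 clone varied least over the arrays, with an SD of 0.15, followed by Psmb1 at 0.16 and Psmc1 at 0.17. Psmd13, Usp25, Ube2k and Psmb2 varied most, at 1.39, 1.08, 1.08 and 1.02. Both spots were measured on 12 arrays for Psmb2, but on 6, 4 and 10 for Psmd13, Usp25 and Ube2k. The part of missing spots in that spread was not tested. The members' median SD was 0.35, beside 0.37 for all clones. Profiles of the 27 proteasome clones over the 12 arrays correlated with a median r of 0.22, and 70.4% of their pairs had a coefficient above 0. Over all complete clones the median was 0.02 and the share 51.8%. All clones share the same 12 arrays, and on the 8 arrays of pairs 3 to 6 the proteasome median was 0.14 and the share 57.5%, beside 0.00 and 50.1% for all complete clones.

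Clones of 1 gene did not always vary together. The 2 Psma7 clones had similar mean ratios, -0.05 and -0.22, but ran against each other, with r = -0.75 over 12 arrays. The spots within each clone correlated at 0.79 and 0.85. In the second clone all arrays of pairs 1 and 2 lay above the others, and r without those arrays is not given here. The Psmd11 clones correlated at 0.61 and the Ube3c clones at 0.72. Of the 13 pairs of clones under the same member symbol, 7 had a coefficient below 0, and the median was -0.14.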

How the data were processed

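Two-colour arrays measured RNA of 12 animals against a reference. The authors deposited 1 table of log2 ratios; background correction, filters, log base and direction are not given in the sources used here, and the log2 scale was read from the size of the values. Gene symbols came from an older platform annotation: 10118 features had 1 symbol, 1092 several and 6934 none. Exact zeros were set to missing. The median of each array was subtracted, and features of the same accession were averaged into clones, since different clones of a gene disagreed. Clones with both values in at least 4 of 6 pairs were tested with limma 3.58.1 in R 4.3.3 (lmFit, eBayes; pair as a fixed block, from the labels; Benjamini-Hochberg over all clones, 0.05), after a check on simulated data. The simulated data were complete clones with independent normal noise, so the check did not cover missing spots or outlying arrays. Deviations of the arrays of pairs 1 to 6 from their group means correlated with r of 0.27, 0.34, 0.04, 0.44, 0.23 and 0.08. The members and lists were chosen with earlier results of these data known. Values are given for clones called, in each role for the 2 with the smallest p and the widest difference, for the 3 highest and 3 lowest ratios to the reference, and for genes of several clones; of other pathway genes for those called, or else the 4 with the smallest p. Members outside that rule are given by their difference, some with intervals or ranges added after their values were seen. In all, 14 alternatives were planned and 2 added.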

Additional observations from a re-analysis of the deposited data

Results flagged for a closer look

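Over the member clones, 7 of 138 sets of alcoholic or control values had 1 animal set apart by a wide gap relative to the range of the set; chance alone gives about 1 in 20, or 6.9. Psmb2 stood at 3.46 in the alcoholic animal of pair 2, where the others ended at 1.54, and at 4.33 in the control of pair 5, where they ended at 1.77. Usp3 stood at 3.00 in the alcoholic animal of pair 2, above a range of 0.12 to 0.52, and Usp40 at -1.15 in that animal, below -0.61 to -0.32. In the alcoholic animal of pair 5, the third Usp7 clone was at -2.67, below -2.20 to -1.98. Among controls, Ube2g1 was at -2.46 in pair 5, below -1.50 to -1.15, and Psmd4 at -2.63 in pair 6, below -1.85 to -1.45. All are centred log2 ratios, and their causes were not tested.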

How the results depend on the processing

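No member clone was called by limma under any of the 14 alternatives listed at the start or the 2 added; the added fits, on pairs 3 to 6 and on pairs 1 and 2 alone, were chosen after the values by array were seen. Without centring, 2 of all 11852 clones were called, and 0 under each other setting, where 136 (no replicate block) to 449 (pairs 1 and 2 alone) had an unadjusted p under 0.05. Without the pair block, 1 member clone had such a p and 0 were called, as with it. The median over members lay between -0.03 and 0.04 without 1 pair, and was -0.06 without centring, -0.06 in pairs 3 to 6 and 0.09 in pairs 1 and 2. Taken as single features, 84 of 126 lay on one side of the array median. That count rests on more units than the clones, and the matching share over all features is not given here. Over the 14 listed alternatives 53 of 539 values of the 39 named clones tested changed sign; 16 clones never did. Leaving out 1 pair moved 33 of the 39 by over 1.5 times or across 0, so sizes of single members are loose. Signal over background was not used here.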
